A study of Mus musculus with 4 samples.

Results

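The genes described here are 31 lysosomal genes, named by symbol and chosen for their function, with earlier results of these data known. They comprise 6 cysteine cathepsins, 4 other peptidases, 7 glycosidases, 5 lipid enzymes and their helpers, 2 cholesterol export proteins, 6 membrane proteins and the progranulin gene Grn. All 31 were listed in all 4 single-cell libraries, among 13036 genes listed in at least 1 library. The libraries hold CD45+CD11b+Ly6G- mononuclear cells from hind paw synovium of Cx3cr1creER:tdTomato mice, in which Cre under the Cx3cr1 promoter labels cells after tamoxifen. Every mouse, those of day 0 included, had 2 tamoxifen doses at 4 mg/ml within 48 h, and K/BxN serum, whose antibodies cause arthritis on transfer, followed 4 weeks later. One group was taken at steady state (day 0), and the others at days 1, 2 and 5 after serum, with 1 library per day. The number of mice behind each library is not given, so no test between days is possible, and all intervals below are 95% intervals for counting error only.

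Lysosomes are acidic compartments that break down material taken up from outside the cell or delivered by autophagy. Their lumen holds proteases, glycosidases and lipases, a proton pump keeps the lumen acidic, and heavily glycosylated membrane proteins line the limiting membrane. Macrophages are phagocytes and carry many lysosomes, and osteoclasts, the bone-resorbing cells of the same lineage, also secrete lysosomal enzymes onto bone.

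Barcodes were kept when they held 500 genes or more and when mitochondrial transcripts made up less than 10% of their UMIs (unique molecular identifiers, each standing for 1 captured transcript), which left 3715, 4642, 2722 and 3235 at days 0, 1, 2 and 5. Their median UMI counts were 1057, 3608, 4184 and 3897, so the day 0 library was the shallowest, and pairs of libraries shared 10 to 22 barcode sequences. The genes behind the sort and the macrophage label were present in every library: Ptprc, which encodes CD45, at 132 to 235 CPM (UMIs scaled to the same total in each library), Itgam, which encodes CD11b, at 116 to 237 CPM, and Csf1r, the macrophage growth factor receptor, at 689 to 1086 CPM. Ly6g was listed in no library, and the reporter transcript TdTomato was at 380 to 878 CPM. Marker sums of other cell types were low for fibroblasts (8 genes, 135 to 167 CPM), endothelial cells (5 genes, 10.4 to 13.2 CPM) and neutrophils (8 genes, 7.08 to 21.5 CPM), and 6 of the 8 neutrophil genes were listed in no library.

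Promoters of several members share a short sequence that transcription factors of the TFEB and TFE3 family are known to bind, the CLEAR element, built around the letters TCACGTG. Of the 31 members, 27 had an entry in the RefSeq promoter table (GRCm38.p6, 250 bases before to 50 after the start), and Asah1, Ctsb, Ctsh and Npc1 had none. TCACGTG occurred on either strand in 7 of the 27 (25.9%), against 1160 of 27025 genes in the table (4.29%). The 7 were Ctsa, Ctsd, Gaa, Glb1, Lamp1, Lgmn and Naglu. Its 6-base core CACGTG, which every TCACGTG match contains, occurred in 8 of 27 (29.6%), against 8.09% of all genes, and the palindrome TCACGTGA in 2 (7.41%), against 1.12%. That palindrome with a G before and a C after it occurred in 0 of 27, against 0.37% of all genes. A match describes the letters only, and no match in this window says nothing about the factor.

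The matches of 5 members that recur in the results below are printed from RefSeq, with TCACGTG or its reverse complement CACGTGA in capitals, 5′ to 3′ on the gene's own strand. Ctsd lies on the minus strand at chr7:142387899-142387946, Lgmn on the minus strand at chr12:102439116-102439162, Naglu on the plus strand at chr11:101070000-101070046, Glb1 on the plus strand at chr9:114401009-114401055 and Lamp1 on the plus strand at chr8:13159079-13159160. Ctsd has another match, CACGTGA, 245 bases before its start, which is not printed. The Lamp1 stretch holds 4 matches, the last of them starting 16 bases before the transcript start.
Ctsd: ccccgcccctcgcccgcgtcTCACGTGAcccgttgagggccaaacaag
Lgmn: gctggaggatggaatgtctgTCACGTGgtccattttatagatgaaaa
Naglu: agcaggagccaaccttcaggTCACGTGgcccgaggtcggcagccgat
Glb1: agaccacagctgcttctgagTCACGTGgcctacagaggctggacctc
Lamp1: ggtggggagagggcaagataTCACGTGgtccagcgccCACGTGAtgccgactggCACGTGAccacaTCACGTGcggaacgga

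The 31 genes together made up 2.37% of retained UMIs at day 0 (95% interval 2.36 to 2.39), 2.61% at day 1 (2.61 to 2.62), 2.79% at day 2 (2.79 to 2.8) and 2.2% at day 5 (2.19 to 2.2). The share was highest at day 2 and lowest at day 5, and the order of the days was the same for the median barcode, at 2.31, 2.37, 2.54 and 2.11%. No retained barcode lacked a lysosomal UMI. Within a library the spread between barcodes exceeded the differences between days, with the middle 90% of barcodes at day 5 running from 0.923 to 4.26%. Because these are sums over mixed cells, a different mix of cells and a different level per cell cannot be told apart in the values by day, and neither can day and library.

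**Figure D1:**
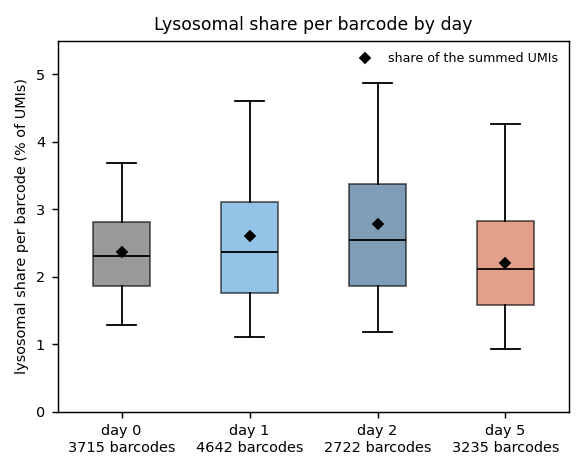
Lysosomal share of UMIs per retained barcode (percent) by day, 1 library each. Boxes span the quartiles around the median, whiskers the 5th to the 95th percentile, and diamonds mark the share of the summed UMIs, 2.37, 2.61, 2.79 and 2.2%.

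Summed markers of cell types differed between the days. The 7 monocyte markers (Ly6c2, Plac8 and others) summed to 138, 234, 259 and 1373 CPM at days 0, 1, 2 and 5, and all 7 were at least 1.5-fold higher at day 5 than at day 1. The 3 genes Spp1, Arg1 and Thbs1 summed to 114, 99.4, 168 and 1425 CPM. Lining markers (7 genes, among them Sparc and Vsig4) summed to 3587, 3713, 4328 and 2400 CPM, lowest at day 5. Osteoclast markers (8 genes, of which Calcr was listed in no library) summed to 958, 241, 319 and 1201 CPM, high at days 0 and 5. Erythroid markers (5 genes, none listed at day 0) summed to 29.2, 5.18 and 161 CPM at days 1, 2 and 5. These sums did not all follow the same course over the days, and their part in the values by day given next was not tested.

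A gene was called higher or lower between days when its CPM differed at least 1.5-fold, with at least 10 CPM on 1 side. Against day 0, day 1 had 2 members higher (Hexa and Glb1) and 1 lower (Gm2a), where 13.9% of the 7354 genes tested were higher and 5.17% lower. Day 2 had 6 higher (Ctsd, Hexa, Gaa, Glb1, Tpp1 and Ppt1) and 1 lower (Gm2a), against 13.8% and 6.19% of all genes. Day 5 had 1 higher (Ctsh) and 2 lower (Lgmn and Gm2a), against 17% and 9.17%. The median log2 ratio of the members was 0.27, 0.26 and -0.04 at days 1, 2 and 5, beside 0.15, 0.14 and 0.11 over all genes tested, and all 3 comparisons use the same day 0 library. With median-ratio scaling, which moved the log2 ratios down by 0.17, 0.14 and 0.11, the members higher and lower became 0 and 2 at day 1, 2 and 1 at day 2, and 1 and 5 at day 5. The shares of all genes in this paragraph were counted without that scaling, so they are no background for the scaled counts. Between the later days, which also share libraries, no member was past the fold from day 1 to day 2, where 0.602% of genes were higher and 0.794% lower. From day 1 to day 5 none was higher and 2 were lower (Lipa and Man2b1), against 7.84% and 8.65% of all genes, and median-ratio scaling left none past the fold. From day 2 to day 5 none was higher and 6 were lower (Ctsd, Grn, Lgmn, Lipa, Man2b1 and Naglu), against 8.58% and 8.06%.

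The cysteine cathepsins were the most abundant group, with 8074, 9329, 9858 and 8462 CPM at days 0, 1, 2 and 5. Each UMI stands for 1 transcript tagged near its 3′ end, so CPM is compared between genes without division by length. Ctss, the cathepsin that trims the invariant chain in antigen-presenting cells, led all members at 3391, 3653, 3807 and 3398 CPM. Ctsb, an abundant endo- and exopeptidase, was next at 2733, 3423, 3705 and 2531 CPM, highest at day 2. Neither was past the fold in any comparison between days. Ctsc, which activates serine proteases of granules, was at 691, 877, 912 and 916 CPM, and Ctsz, a carboxypeptidase, at 674, 732, 769 and 804 CPM. Ctsl was nearly level at 377, 339, 357 and 415 CPM. Ctsh, an aminopeptidase, was at 207, 306, 308 and 397 CPM, and was the only member higher at day 5 than at day 0, by 1.92-fold (1.79 to 2.06).

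Among the other peptidases, Ctsd, the main aspartic protease of lysosomes, was at 1830, 2325, 2916 and 1678 CPM. It was 1.59-fold higher at day 2 than at day 0 (1.55 to 1.63) and 1.74-fold lower at day 5 than at day 2 (1.71 to 1.77), so days 2 and 5 were the ends of its range. Lgmn, the asparaginyl endopeptidase that processes other cathepsins, was at 2021, 1884, 2091 and 1321 CPM. Its first 3 values lay close together, and day 5 was 1.53-fold lower than day 0 (1.49 to 1.57). With at least 1000 genes per barcode Lgmn was not called lower at day 5 than at day 0. Ctsa, a carboxypeptidase that also protects β-galactosidase and neuraminidase, was at 437, 528, 592 and 439 CPM. Tpp1, a tripeptidyl peptidase mutated in a form of neuronal ceroid lipofuscinosis, was at 91.8, 134, 143 and 109 CPM, 1.56-fold higher at day 2 than at day 0 (1.4 to 1.74). The 4 genes summed to 4380, 4871, 5742 and 3548 CPM.

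**Figure D2:**
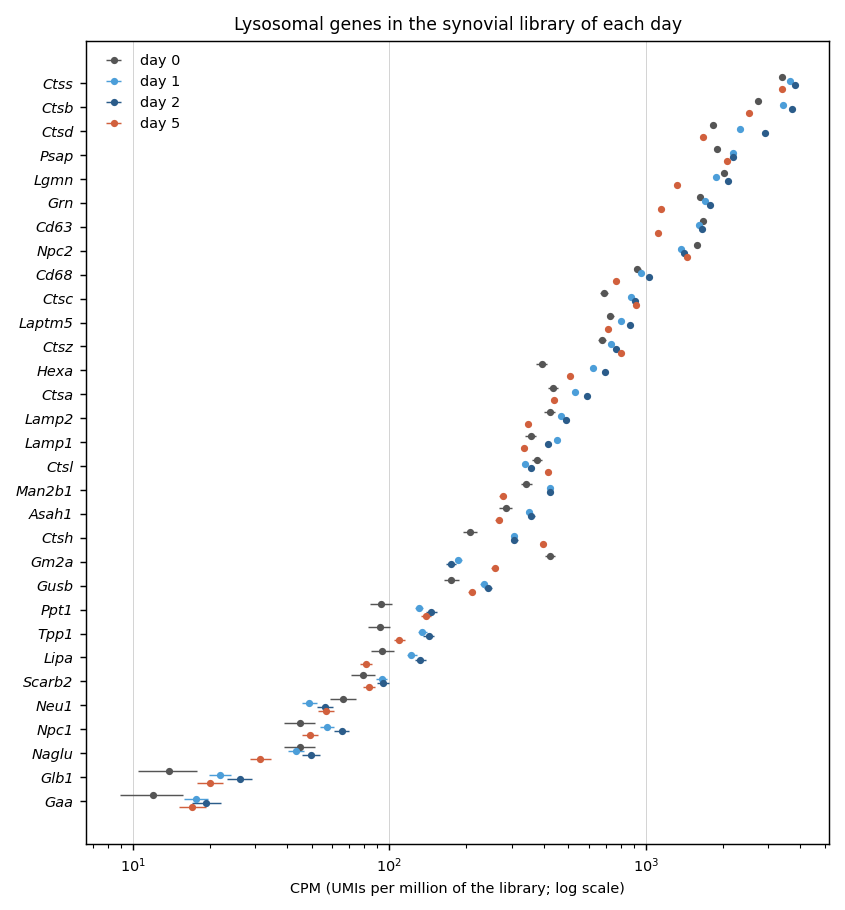
CPM of the 31 lysosomal genes in the library of each day on a log axis, ordered by mean level, with 95% counting intervals as bars. Ctss, Ctsb and Ctsd lead, Glb1 and Gaa are lowest, and day 0 stands apart for Gm2a (423 CPM, against 174 to 258 on the other days).

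The glycosidases, which remove sugars from glycoproteins and glycolipids, summed to 1047, 1418, 1510 and 1119 CPM. Hexa, which takes part in the breakdown of GM2 ganglioside, was at 393, 626, 693 and 506 CPM, and was 1.6-fold higher at day 1 (1.52 to 1.68) and 1.76-fold at day 2 (1.67 to 1.86) than at day 0. Man2b1, the lysosomal α-mannosidase, was at 343, 425, 423 and 277 CPM and was 1.53-fold lower at day 5 than at day 1 (1.48 to 1.59). Both were highest at days 1 and 2. Gusb, β-glucuronidase, was at 175, 234, 243 and 210 CPM, and Neu1, the lysosomal sialidase, at 66, 48.8, 56.3 and 56.8 CPM. Naglu, which degrades heparan sulfate, was at 44.9, 43.5, 49.5 and 31.5 CPM. The scarcest members were Glb1, β-galactosidase, at 13.8, 22, 26.1 and 20.1 CPM, and Gaa, acid α-glucosidase, at 12, 17.6, 19.4 and 17.1 CPM. At day 0 these rested on 60 and 52 UMIs, so the day 2 ratios of 1.89 for Glb1 (1.43 to 2.53) and 1.62 for Gaa (1.2 to 2.24) are imprecise.

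The lipid enzymes and their helpers held the member that differed most from day 0. Gm2a, the activator that presents GM2 ganglioside for breakdown, measured 423 CPM before serum, then 186, 174 and 258 CPM on days 1, 2 and 5. The later values were 2.27-fold (2.15 to 2.41), 2.43-fold (2.28 to 2.58) and 1.64-fold (1.55 to 1.73) lower than day 0, and day 0 was above each later day. With at least 1000 genes per barcode, which left 96 barcodes at day 0, Gm2a was not called lower at day 5. Hexa, which acts on the same lipid, was lowest at day 0. Psap, the precursor of the saposins, was level by comparison at 1905, 2192, 2197 and 2081 CPM. Lipa, lysosomal acid lipase, was at 94.1, 122, 132 and 81.2 CPM, and was 1.51-fold lower at day 5 than at day 1 (1.4 to 1.62). Asah1, acid ceramidase, was at 285, 350, 358 and 267 CPM. Ppt1, palmitoyl-protein thioesterase, was at 93.2, 131, 146 and 139 CPM and was 1.56-fold higher at day 2 than at day 0 (1.4 to 1.75).

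None of the remaining members was past the fold against day 0. Npc2, which binds cholesterol in the lumen, was at 1582, 1376, 1416 and 1454 CPM, and its membrane partner Npc1 at 44.9, 57.2, 65.3 and 49.1 CPM. Among membrane proteins, Lamp1 was at 357, 452, 415 and 335 CPM and Lamp2 at 423, 469, 489 and 348 CPM. These are the main glycoproteins of the limiting membrane, and neither was past the fold. The tetraspanin Cd63 was at 1666, 1619, 1665 and 1115 CPM, and Cd68, a macrophage LAMP family protein, at 929, 959, 1031 and 767 CPM. Laptm5, a transmembrane protein of blood cells, was at 729, 802, 869 and 710 CPM, and Scarb2, the receptor that carries β-glucocerebrosidase to lysosomes, at 79.4, 93.5, 94.7 and 83.4 CPM. The 6 membrane proteins summed to 4184, 4394, 4565 and 3359 CPM, and each was at its lowest at day 5 except Scarb2. Grn, the precursor of progranulin and the granulins, was at 1633, 1701, 1786 and 1148 CPM, 1.56-fold lower at day 5 than at day 2 (1.52 to 1.59).

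**Figure D3:**
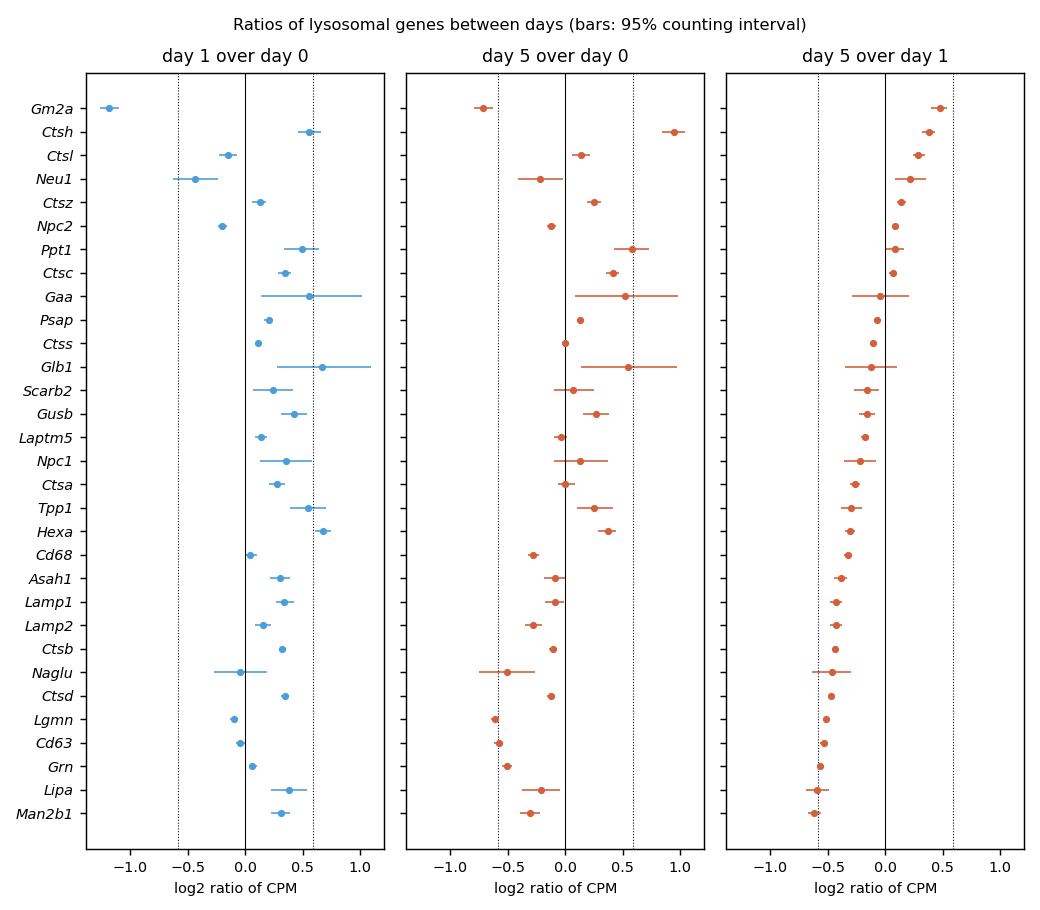
log2 ratios of CPM for the 31 genes, day 1 over day 0, day 5 over day 0 and day 5 over day 1, ordered by the last, with 95% counting intervals. Dotted lines mark 1.5-fold. Gm2a lies below the lower line at days 1 and 5 against day 0, Ctsh above the upper line at day 5, and Man2b1 and Lipa at the bottom of day 5 over day 1.

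Other lysosomal genes were read from 6 lists by the same rule. Over all genes, 13.9% were higher and 5.17% lower at day 1, 13.8% and 6.19% at day 2 and 17% and 9.17% at day 5 against day 0, and 7.84% and 8.65% at day 5 against day 1; counts in these short lists near such shares show nothing particular to them. Of 36 further hydrolases, 6 of 32 tested were higher and 2 lower at day 1 than at day 0, 7 of 33 higher and 2 lower at day 2, and none of 31 higher and 1 lower at day 5. Arsb, arylsulfatase B, was at 90.9, 143, 162 and 96.6 CPM, and Pla2g15, a lysosomal phospholipase, at 38.6, 67.3, 75 and 44.1 CPM. The 2 that were lower at days 1 and 2 are osteoclast enzymes: Ctsk, the collagen-degrading cathepsin, at 513, 131, 192 and 615 CPM, and Acp5, tartrate-resistant acid phosphatase, at 304, 75.2, 85.4 and 339 CPM. Both therefore had 2 high and 2 low libraries, the same ones as the osteoclast marker sum, which includes them. Lyz1 was at 1318, 1310, 1288 and 636 CPM, but it is nearly identical to Lyz2 and the split of reads between them is uncertain. Against day 1, day 5 had 3 hydrolases higher and 5 lower of 32.

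None of 17 tested V-ATPase genes was higher and 1 lower at day 1 or day 2 against day 0, and 2 were higher and 1 lower at day 5. Past the fold on each of these days was Atp6v0d2, an osteoclast subunit, at 27.4, 7.67, 13.7 and 56.8 CPM. Tcirg1, another subunit used by osteoclasts, was at 50.4, 44.7, 47.9 and 80.9 CPM and was 1.81-fold higher at day 5 than at day 1. Of the further membrane proteins, 1 of 23 was higher and 5 lower at day 5 than at day 1, with Slc15a3, a peptide and histidine transporter, up from 39.2 to 73.3 CPM and Tpcn1, a cation channel of the endolysosomal membrane, down from 67.4 to 39.9 CPM. Of the sorting genes, which carry enzymes to lysosomes, 4 of 15 were higher and 1 lower at day 5 than at day 0, among them the mannose 6-phosphate receptor M6pr, from 133 to 211 CPM. Of the 16 tested genes of TFE factors and mTORC1 signalling, 1 was higher and 1 lower at day 1 than at day 0, and none in either direction at day 5 against day 1. Of these, Mitf was at 30.6, 49 and 49.6 CPM at days 0, 1 and 2. At day 5 none of the 16 tested genes was higher than at day 0 and 1 was lower, where 17% and 9.17% of all genes were. Protease inhibitors had only 3 tested genes, of which Cstb, a cytosolic cathepsin inhibitor, was 1.86-fold higher and Serpinb6a 1.61-fold lower at day 5 than at day 1.

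The members were next described across barcodes with at least 1 UMI of each of 7 marker genes, against barcodes of the same library with none. The markers were Sparc (a matricellular protein, on the lining list), Aqp1 (a water channel), Cd163 (the haemoglobin scavenger receptor), H2-Aa (an MHC class II chain), Plac8 (a monocyte gene), Spp1 (osteopontin) and Acp5. Sets overlap, since 67.7 to 71.9% of barcodes held at least 2 of the markers, and barcodes of 1 library are not replicates. A member is counted below when it was at least 1.5-fold different in at least 3 of the 4 libraries. Free RNA can place a marker UMI in a barcode that does not express it. Of barcodes with at least 3 Sparc UMIs, 1.03, 0.47, 0.723 and 5.15% held a Plac8 UMI at days 0, 1, 2 and 5. Of barcodes with at least 3 Plac8 UMIs at day 5, 6.48% held a Sparc UMI, at median depths of 3948 and, in the Sparc set, 4593 UMIs. The other markers were found more often in barcodes with at least 3 Sparc UMIs: Acp5 in 8.64 to 18.2% by day, Spp1 in 13.8 to 28.8%, Cd163 in 21.4 to 34.8%, H2-Aa in 24.4 to 49.4% and Aqp1 in 39.2 to 52.7%. At day 1, 232 of the 454 Acp5-positive barcodes had at least 3 Sparc UMIs. Whether these are free RNA, doublets or shared expression was not tested.

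Sparc-positive barcodes carried the higher lysosomal share in 4 of 4 libraries. The share was 2.53% against 2.2% in Sparc-negative barcodes at day 0, 3.28% against 2.08% at day 1, 3.31% against 2.22% at day 2 and 3.13% against 1.8% at day 5. The ratio was therefore 1.15 (1.14 to 1.16) at day 0 and 1.49 to 1.74 on the later days. Of 31 members, 5 were higher (Ctsd, Npc1, Grn, Man2b1 and Naglu) and 1 was lower (Ctsc), where 3.69% of genes were higher and 2.89% lower. The other 6 lining markers, without Sparc, which defines the sets, summed to 3260 CPM in positive and 2059 CPM in negative barcodes at day 0, and to 5194 and 1042 CPM at day 1. Median depth was 1087 and 1023 UMIs at day 0 and 4436 and 3116 at day 1. The part of depth and of free RNA in the day 0 ratio was not tested.

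Ctsd differed most by this marker. In Sparc-positive barcodes its levels at days 0, 1, 2 and 5 were 2298, 4505, 4814 and 4435 CPM, and in Sparc-negative barcodes 1295, 577, 777 and 504 CPM. The ratios were 1.78 (1.69 to 1.86), 7.81 (7.6 to 8.03), 6.2 (6.01 to 6.4) and 8.8 (8.54 to 9.08), so Ctsd was past the fold in all 4 libraries. Naglu was at 50, 64.1, 63.2 and 56.6 CPM in positive and at 39, 27, 34.1 and 20.8 CPM in negative barcodes, with ratios of 1.28, 2.38, 1.85 and 2.73. Grn was at 1821, 2320, 2265 and 2073 CPM in positive and 1417, 1204, 1245 and 754 CPM in negative barcodes, a ratio of 2.75 at day 5 (2.67 to 2.83). Man2b1 had ratios of 1.2, 1.8, 1.74 and 2.54 and Npc1 of 1.2, 1.56, 1.6 and 1.63, each with day 0 lowest. Ctsc went the other way, at 662, 627, 678 and 657 CPM in positive and 723, 1077, 1176 and 1027 CPM in negative barcodes, 1.72-fold lower at day 1 (1.66 to 1.78).

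**Figure D4:**
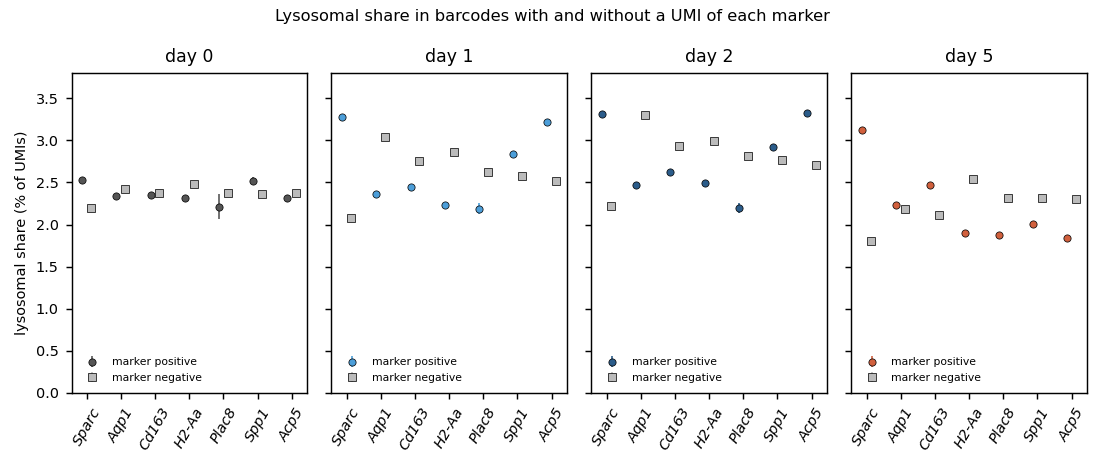
Lysosomal share of UMIs (percent) in barcodes with (circles) and without (squares) a UMI of each marker, by day, with 95% counting intervals. Sparc-positive barcodes lie above Sparc-negative ones on every day, at 3.13 and 1.8% at day 5, while Acp5-positive barcodes lie above at days 1 and 2 and below at day 5.

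A stricter set, with at least 3 Sparc UMIs, widened these gaps at day 5. Its 699 barcodes had a lysosomal share of 3.4% (3.39 to 3.42), 1.89 times that of Sparc-negative barcodes. The ratio in such sets was smaller at days 0, 1 and 2, at 1.25, 1.7 and 1.57. In the day 5 set 20 of 31 members were higher, where 17.6% of all genes were, and 3 were lower, where 16.4% were. The 3 were Ctsc, 1.68-fold lower (1.6 to 1.76), Ctsh, 1.85-fold lower (1.72 to 2), and Gm2a, 2.77-fold lower (2.49 to 3.08). Ctsd stood at 5307 CPM against 504 CPM, a ratio of 10.5 (10.2 to 10.9). Lining markers other than Sparc summed to 5888 CPM in this set and to 542 CPM in the negative one, and monocyte markers to 236 and 1792 CPM. Interstitial markers (4907 and 3010 CPM) and fibroblast markers (407 and 96.5 CPM) were higher in this set as well. The part of these other markers was not tested.

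H2-Aa-positive and Plac8-positive barcodes carried the lower share in 4 of 4 libraries. For H2-Aa the share was 2.31% against 2.48% at day 0, 2.23% against 2.86% at day 1, 2.49% against 2.99% at day 2 and 1.9% against 2.54% at day 5. Of the members, 2 were higher (Ctsh and Gm2a) and 1 lower (Ctsd), where 2.08% of genes were higher and 1.47% lower. The count of lower members depended on how the set was drawn: it was 14 with at least 3 H2-Aa UMIs (7.75% of genes), 12 after thinning each barcode to 500 UMIs (6.05%) and 12 in barcodes with H2-Aa alone of the 7 markers (10.3%). For Plac8 the share was 2.21% against 2.38%, 2.19% against 2.62%, 2.2% against 2.81% and 1.87% against 2.31%, but only 32, 59 and 52 barcodes were Plac8-positive at days 0, 1 and 2, against 826 at day 5. In at least 3 libraries with Plac8 the same 2 members were higher and 7 lower (Ctsd, Hexa, Cd63, Grn, Lgmn, Tpp1 and Naglu). Of all genes, 7.29% were higher and 7.81% lower. Tpp1 was at a ratio of 0.847 at day 2 and counts through day 0, on 2 UMIs (ratio 0.561, 0.0677 to 2.04). Naglu rests on 6 and 7 UMIs at days 1 and 2, with intervals of 0.209 to 1.25 and 0.243 to 1.26.

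Ctsh and Gm2a were thus higher in both of these sets. In H2-Aa-positive barcodes Ctsh was at 246, 441, 422 and 470 CPM and in negative ones at 143, 217, 234 and 315 CPM, with ratios of 1.72, 2.03, 1.8 and 1.49. Gm2a was at 470, 295, 251 and 322 CPM in positive and at 344, 115, 124 and 185 CPM in negative barcodes, with a ratio of 2.58 at day 1 (2.4 to 2.76). In both kinds of barcode Gm2a was highest at day 0. In Plac8-positive barcodes of day 5, Ctsh was at 632 against 318 CPM (ratio 1.99, 1.89 to 2.09) and Gm2a at 418 against 204 CPM (ratio 2.05, 1.93 to 2.19), while at day 0, on 8 and 14 UMIs, neither differed beyond counting error. Cd63 was 3.52-fold lower in Plac8-positive barcodes at day 5 (3.33 to 3.71), at 387 against 1362 CPM, and Ctsd 3.03-fold lower (2.91 to 3.16), at 666 against 2021 CPM. In the Plac8-positive barcodes at day 5, monocyte markers other than Plac8 summed to 2741 CPM, against 345 CPM in the negative ones, and MHC class II markers to 17731 against 16268 CPM.

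Aqp1-positive barcodes had a share of 2.34% against 2.42% at day 0, 2.36% against 3.04% at day 1, 2.47% against 3.3% at day 2 and 2.23% against 2.18% at day 5. No member was higher and 2 were lower, Ctsh and Gm2a, where 1.72% of genes were higher and 1.62% lower. Ctsh was at 189, 250, 247 and 250 CPM in Aqp1-positive barcodes and at 231, 399, 401 and 467 CPM in negative ones. MHC class II markers summed to 8513 CPM in Aqp1-positive and 26090 CPM in Aqp1-negative barcodes at day 1. Cd163-positive barcodes had no member past the fold in at least 3 libraries, where 0.348% of genes were higher and 0.487% lower. Their share was 2.35, 2.45, 2.62 and 2.47%, against 2.38, 2.75, 2.93 and 2.11% in negative barcodes.

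**Figure D5:**
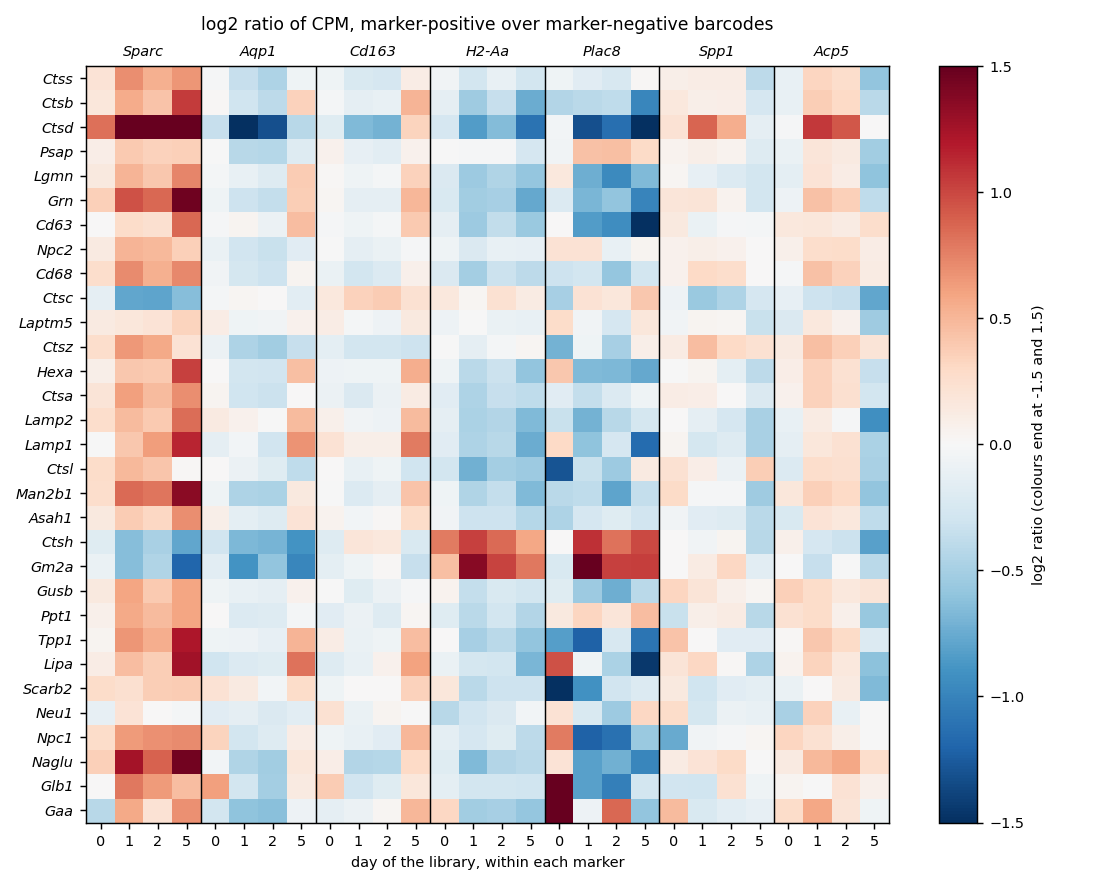
log2 ratio of CPM in marker-positive over marker-negative barcodes for the 31 genes (rows) in each library (columns, days 0, 1, 2 and 5 within each of 7 markers), with colours ending at -1.5 and 1.5. Ctsd is high with Sparc in every library, Ctsh and Gm2a are high with H2-Aa and, from day 1 on, with Plac8, and the Plac8 column of day 0 rests on 32 barcodes. In that column Npc1, Gaa, Glb1 and Neu1 had 0 UMIs in positive barcodes, replaced by 3, so their ratios above 1 do not show a higher level.

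Spp1-positive barcodes had a higher share at days 0, 1 and 2 and a lower one at day 5. The values were 2.52% against 2.36%, 2.84% against 2.58%, 2.92% against 2.77% and 2.01% against 2.32%. No member was past the fold in at least 3 libraries in either direction, where 1.47% of genes were higher and 1.66% lower. Acp5-positive barcodes were near their negatives at day 0, at 2.31% against 2.38%, above them at day 1, at 3.22% against 2.52%, and at day 2, at 3.33% against 2.71%, and below them at day 5, at 1.84% against 2.3%. Again no member reached the fold in at least 3 libraries, where 0.433% of genes were higher and 0.95% lower. Ctsd, for instance, was 2.09-fold higher with Acp5 at day 1 (2.04 to 2.13) and at a ratio of 0.998 at day 5 (0.969 to 1.03). Lamp2 was at a ratio of 1.08 at day 1 and 1.89-fold lower at day 5 (1.75 to 2.05).

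The Acp5-positive barcodes of these days also differed in their other markers. At days 1 and 2 their lining markers summed to 5619 and 6378 CPM, above the 3435 and 4015 CPM of negative barcodes, while at day 5 the sum was 2097 against 2490 CPM. Osteoclast markers, which include Acp5 itself, summed to 1277, 1587 and 4866 CPM in positive barcodes at days 1, 2 and 5. Barcodes with at least 3 Acp5 UMIs were fewer. At day 1 there were 57, with a lysosomal share of 3.37% and osteoclast markers at 5622 CPM, and at day 5 there were 124, with a share of 1.06% (1.04 to 1.07) against 2.3% in Acp5-negative barcodes and osteoclast markers at 10033 CPM. At day 2 there were 38, with a share of 3.04% against 2.71% (ratio 1.12, 1.1 to 1.14) and osteoclast markers at 8007 CPM. A high osteoclast sum thus went with a higher share at that day and with a lower one at day 5. At day 0 there were 118, with a share of 1.99% (1.91 to 2.06) against 2.38%, and osteoclast markers at 19678 CPM. These stricter sets also differed in lining markers, which summed to 5440 and 6561 CPM at days 1 and 2, above 3435 and 4015 CPM in Acp5-negative barcodes. At days 0 and 5 they summed to 1910 and 659 CPM, below 3635 and 2490 CPM. The part of the lining markers was not tested. The median depth of the day 5 set was 11325 UMIs, against 6944 at day 1 and 1076 at day 0, and the part of depth was not tested.

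In the day 5 set of at least 3 Acp5 UMIs, 22 of 31 members were lower, where 29.8% of all genes were. None was higher, but the share of all genes that were higher is not given here. Lamp2 was 6.67-fold lower (5.44 to 8.27), at 58.6 against 391 CPM, and Ctsc 5.55-fold lower (4.94 to 6.26), at 183 against 1014 CPM. Ctss was at 899 against 3681 CPM and Lgmn at 328 against 1433 CPM. Not every member was past the fold: Ctsz was at 913 against 779 CPM, Cd63 at 1213 against 1068 CPM, Npc2 at 1489 against 1428 CPM, Cd68 at 733 against 752 CPM and Gusb at 242 against 204 CPM. Genes of the pump and the osteoclast enzymes were higher in the same barcodes. Ctsk was at 5051 against 80 CPM, a ratio of 63.2 (59 to 67.7), Atp6v0d2 at 472 against 6.37 CPM, a ratio of 74.1 (58.2 to 95.6), and the V-ATPase list summed to 7899 against 3523 CPM. At day 0 that list summed to 8335 against 3538 CPM in the corresponding sets.

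The members were also followed from day 1 to day 5 within each set of positive barcodes. In Sparc-positive barcodes the lysosomal share was 3.28% at day 1 and 3.13% at day 5 (ratio 0.956, 0.95 to 0.962), and 0 of 31 members were past the fold in either direction, where 5.2% of genes were. Ctsd was at 4505 and 4435 CPM and Lipa at 144 and 137 CPM on these days, while the whole libraries held 2325 and 1678 CPM of Ctsd and 122 and 81.2 CPM of Lipa. Aqp1-positive barcodes (ratio 0.948, 0.942 to 0.955) and Cd163-positive barcodes (1.01, 0.998 to 1.01) likewise had 0 members past the fold, where 5.7% and 5.87% of genes were. In barcodes with that marker alone the log2 ratio was 0.02 for Aqp1 and -0.10 for Cd163, opposite in sign to the values of all positive barcodes. These were smaller sets, with 566 and 147 barcodes for Aqp1 and 193 and 32 for Cd163 at days 1 and 5.

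The other sets held lower lysosomal shares at day 5 than at day 1. In H2-Aa-positive barcodes the ratio was 0.853 (0.847 to 0.859), with 3 members lower (Grn, Lipa and Man2b1) and none higher, where 19.7% of genes were past the fold in either direction. In Plac8-positive barcodes it was 0.854 (0.83 to 0.879), with 3 members higher and 5 lower, where 44.5% of genes were past the fold, and the day 1 side rests on 59 barcodes. The log2 ratio, -0.23 for both markers, turned positive in barcodes with that marker alone, at 0.06 for H2-Aa and 0.12 for Plac8. With at least 3 UMIs it was -0.03 and -0.11, and after thinning -0.04 and -0.09. In Spp1-positive barcodes it was 0.707 (0.701 to 0.714), with 8 members lower, where 23.7% of genes were past the fold, and Ctsd went from 3846 to 1584 CPM. In Acp5-positive barcodes it was 0.572 (0.566 to 0.579), with 19 members lower and none higher, where 42.1% of genes were past the fold, and Man2b1 was 2.64-fold lower (2.4 to 2.9). Spp1-positive barcodes numbered 422 at day 1 and 1098 at day 5, with osteoclast markers at 978 and 2483 CPM, so these sets, too, differed in their other markers between the days. Erythroid markers at day 5 summed to 398 CPM in Spp1-positive and 5.67 CPM in negative barcodes, to 678 and 6.72 CPM by Acp5, and to 5.17 and 228 CPM by Sparc, and their part in the shares was not tested. From day 1 to day 2 the ratio lay between 1.01 and 1.12 in all 7 sets.

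Across the 28 sets (7 markers in 4 libraries), members followed the summed lysosomal share to different degrees. Spearman's rho was 0.95 for Grn, 0.94 for Man2b1, 0.93 for Ctsb and 0.91 for Ctsd, and, of the 28 members with a mean of at least 50 CPM over these sets (all but Gaa, Glb1 and Naglu), 25 had values above 0. The exceptions were Ctsh (-0.24), Ctsc (-0.26) and Gm2a (-0.54), which were also called opposite to Ctsd with Sparc (Ctsc) or with H2-Aa and Plac8 (Ctsh and Gm2a). Each member is part of the share, and the sets overlap and share libraries, so these values are a description. Among 2560 genes, the 10 non-members most like the share were Tmem86a, Pla2g16, Vsig4, C1qa, Arl11, Syngr1, F11r, Plod1, C1qc and Camk1, with rho from 0.92 to 0.95. Vsig4 is on the lining list, and C1qa and C1qc encode chains of complement C1q, which macrophages secrete.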

How the data were processed

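Libraries were made with a Chromium 3′ v2 kit from 17400 loaded cells each and sequenced on a HiSeq 2500, per the labels' protocols. The authors deposited raw UMI counts for every listed gene in every barcode, with no normalization. The submitters' processing notes name R 3.5.2, Seurat 2.3, Cell Ranger 2.1.0 and build mm10, without saying which step each performed. Genes seen in fewer than 5 barcodes of a library are missing from its file, which does not make them 0. The libraries list 11413, 12527, 12047 and 12446 genes and hold 4347517, 18373038, 12159063 and 14901661 retained UMIs at days 0, 1, 2 and 5.

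UMIs were summed over retained barcodes of a library or marker set and scaled to CPM. Shares carry exact Clopper-Pearson, CPM exact Poisson and ratios exact conditional Poisson 95% intervals, and PCR and sampling of cells are not covered. In a ratio, 0 UMIs were replaced by 3. A call needed 1.5-fold and 10 CPM on 1 side, with the gene listed on both. All 31 members are given by day. Members described with intervals had at least 50 CPM on 1 side and 1.5-fold, the first 10 by log2 ratio of CPM with 5 added, and up to 4 such genes were named per list; Gaa, Glb1, Naglu, Npc1, Atp6v0d2, Ctsz, Npc2, Cd68 and Gusb and the genes given as exceptions or as single examples were named after their values were seen. The members and lists were chosen with earlier results of these data known. Some results that met these rules were left out. No doublet caller was run and doublets remain. With 1 library per day no test was made. The ratio code was tested on simulated data. Software was SciPy 1.17.1, NumPy 2.4.6, matplotlib 3.10.9 and pandas 2.3.3 under Python 3.11.15.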

Additional observations from a re-analysis of the deposited data

Results flagged for a closer look

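In 4 of the 7 marker sets the lysosomal share of positive over negative barcodes was above 1 on some days and below 1 on others. The difference between days was not tested, since each day has 1 library. For Aqp1 the ratio was 0.965, 0.775, 0.748 and 1.03 at days 0, 1, 2 and 5. The day 5 value did not stay above 1: it was 0.957 with at least 3 Aqp1 UMIs, and the positive barcodes had the higher share in 0 libraries there, after thinning, and without mitochondrial and ribosomal protein genes. For Cd163 it was 0.893, 0.895 and 1.17 at days 1, 2 and 5, with day 0 (0.987) within counting error of 1. The Spp1 ratio was 1.07, 1.1, 1.06 and 0.867, and the Acp5 ratio 0.97, 1.27, 1.23 and 0.8, so both were below 1 at day 5, where the Cd163 ratio was above 1. The number of Spp1-positive barcodes was 354, 422, 385 and 1098 on the same days, and of Acp5-positive barcodes 404, 454, 276 and 493.

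Barcodes left out of the comparisons also carried the signal: the 3760 day 0 barcodes with under 500 genes held a lysosomal share of 2.33%, beside 2.37% in the retained ones.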

How the results depend on the processing

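No paired analysis was possible because each day has 1 library and no replicate. The alternatives were planned, except that those for day 5 against day 2 were added after seeing the data. In the comparisons between days none turned a called member's direction, the shares moved by less than their counting error with barcodes of at least 200 genes, and counts of calls stayed within 1.5 times without the filter on low values. The cause of each move below was not tested. Shares over all genes under each setting are given for the marker sets only. Counts between days below have no such share beside them, and calls of all genes can move with the setting too.

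With at least 1000 genes per barcode (96 barcodes at day 0) the shares at days 0, 1 and 2 were 2.34, 2.64 and 2.81%. Members higher and lower at day 5 against day 0 became 2 and 0, so neither Lgmn nor Gm2a was called lower there. Other pathway genes became 17 higher and 10 lower at day 1, 9 lower at day 2, and 17 higher and 20 lower at day 5, against day 0 (with 500 genes 11 and 4, 5, and 8 and 9). Libraries with the higher share became 2 for Aqp1 and 2 for Cd163. Members higher became 1 with H2-Aa (2.04% of all genes) and 1 with Acp5 (0.81%). The H2-Aa log2 ratio of shares, day 5 over day 1, was -0.24.

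From day 2 to day 5, where 0 members were higher and 6 lower, 1 was higher with at least 1000 genes per barcode, 1 under 5% mitochondrial UMIs and 1 with median-ratio scaling. The counts were 1 and 3 without mitochondrial and ribosomal protein genes, 1 and 2 with barcodes' own CPM averaged, and 0 were lower at 2-fold.

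With calls at 2-fold no member was higher than day 0 at days 1, 2 or 5 (0 in each), 0 were lower at day 5 against day 0 and 0 against day 1. Other pathway genes became 1 higher at day 1, 1 higher and 2 lower at day 2, and 4 higher and 1 lower at day 5. With Sparc 1 member stayed higher, Ctsd, and 0 lower (1.68 and 1.39% of all genes), and with Aqp1 0 lower (0.61%). With H2-Aa 0 were higher and 0 lower (1.06 and 0.0559%), and with Plac8 1 higher and 1 lower (3.22 and 2.54%).

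Averaging barcodes' own CPM gave shares of 2.54, 2.73 and 2.3% at days 1, 2 and 5, 4 members higher at day 1 and 3 at day 5 than at day 0, and 0 lower at day 5 than at day 1. The log2 ratio of shares, day 5 over day 1, became -0.03 (Sparc), -0.02 (Aqp1), 0.04 (Cd163), -0.12 (H2-Aa), -0.09 (Plac8), -0.37 (Spp1) and -0.49 (Acp5).

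Median-ratio scaling gave 0 members higher and 2 lower at day 1, 2 higher at day 2 and 5 lower at day 5 against day 0, and 0 lower at day 5 against day 1. Other pathway genes became 5 higher and 9 lower at day 1, 5 higher at day 2 and 5 higher at day 5.

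Under 5% mitochondrial UMIs the shares were 2.42, 2.62 and 2.21% at days 0, 1 and 5. There 2 members were higher at day 5 than at day 0, 1 lower at day 5 than at day 1, and 1 lower with Aqp1 (1.67% of all genes). Without mitochondrial and ribosomal protein genes in the total the shares were 2.91, 3.1, 3.3 and 2.72%, 2 members were higher at day 5 than at day 0, 0 lower than at day 1, and Aqp1-positive barcodes had the higher share in 0 libraries. The log2 ratios of shares, day 5 over day 1, were -0.05 (Sparc), -0.05 (Aqp1), 0.03 (Cd163), -0.16 (H2-Aa), -0.41 (Spp1) and -0.65 (Acp5).

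In barcodes positive for 1 marker alone, members higher and lower became 15 and 2 with Sparc (5.8 and 6.03% of all genes) and 2 and 1 with Cd163 (10.7 and 4.03%), 12 were lower with H2-Aa (10.3%), 1 higher with Spp1 (18.5%), and 2 higher and 3 lower with Acp5 (51.7 and 2.74%). The log2 ratios, day 5 over day 1, became -0.14 (Sparc), 0.02 (Aqp1), -0.10 (Cd163), 0.06 (H2-Aa), 0.12 (Plac8), -0.47 (Spp1) and -1.07 (Acp5), so the lower day 5 shares of H2-Aa and Plac8 sets did not hold there.

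With at least 3 marker UMIs, members higher and lower became 8 and 3 with Sparc (5.11 and 4.23% of all genes), and 4 were lower with Aqp1 (2.72%), 1 with Cd163 (1.73%), 14 with H2-Aa (7.75%) and 2 with Acp5 (8.47%). Libraries with the higher share became 0 for Aqp1 and 1 for Plac8, whose day 0 set is 1 barcode. The log2 ratios, day 5 over day 1, became -0.05 (Sparc), -0.04 (Aqp1), 0.14 (Cd163), -0.03 (H2-Aa), -0.11 (Plac8), -0.61 (Spp1) and -1.68 (Acp5).

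With positivity read after thinning to 500 UMIs, 12 members were lower with H2-Aa (6.05% of all genes), and libraries with the higher share became 0 for Aqp1 and 1 for Acp5. The log2 ratios became -0.08 (Sparc), -0.02 (Aqp1), 0.14 (Cd163), -0.04 (H2-Aa), -0.09 (Plac8), -0.46 (Spp1) and -1.19 (Acp5).

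Depth limits the day 0 values, at a median of 1057 UMIs per barcode against 3608 to 4184 on the other days, and the number of barcodes (32, 59 and 52) limits the Plac8 sets before day 5.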
